A study of Mesocricetus auratus with 10 samples.

Results

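The genes described here encode enzymes that attach a polar group to drugs, toxins, steroids, bilirubin and products of lipid peroxidation in the liver. They were chosen by name from the array's design. Every gene whose name begins as a glutathione S-transferase of the alpha, kappa, mu, omega, pi, theta or zeta class (GST), a microsomal glutathione S-transferase (MGST), a UDP-glucuronosyltransferase (UGT) or a sulfotransferase (SULT) was taken. That gave 49 of the 14434 gene names on the array, with 180 of its 116452 probes. One row per gene was read from its brightest probe, and 48 of the 49 names had a probe above the detection limit. The 5 probes of UGT8 did not pass and UGT8 was not tested.

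RNA from the livers of 10 male golden hamsters, Mesocricetus auratus, on a high fat diet (HFD) was set against 1 pool of liver RNA from 10 hamsters on a standard diet (STD), on 20 two-colour arrays of 60-base probes. Each HFD animal was hybridised on 2 arrays of opposite dye orientation, whose mean gave 1 log2 ratio of HFD over STD pool per animal and 10 replicates in all. The sources used here do not give strain, age, diet composition or time on the diet. The pool is a single RNA, so that the test leaves out the spread among STD animals, and whatever is peculiar to this pool enters all 10 ratios. Values below are mean log2 ratios ± SD over the 10 animals, with adjusted p from limma (two-sided, Benjamini-Hochberg over 13827 genes, threshold 0.05), and a gene is said to have risen or fallen only when it passed. All 48 brightest probes were well above background in both RNAs on all 20 arrays.

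The arrays did not form 1 set. In animals 5 to 10, the 6 arrays that carried the HFD sample in Cy3 stood apart. Across genes their ratios correlated with each other at a median r of 0.882, with the other 14 arrays at 0.492, and those 14 among themselves at 0.631. The value on the 14 arrays alone is therefore given for each called gene named below that it moved by more than 1.5 times. The arrays were scanned in 3 sessions, and none held both arrays of an animal.

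Conjugation works with a donor and a transferase. Cytosolic and microsomal GSTs join glutathione to electrophiles, UGTs of the endoplasmic reticulum transfer glucuronic acid from UDP-glucuronic acid, and cytosolic SULTs transfer sulfate from the donor PAPS. In liver these enzymes clear drugs, bilirubin, bile acids and steroid and thyroid hormones, and the conjugates leave through transporters into bile or blood. In rodents the mu class GSTs and the UGT2B enzymes are families of close paralogs, and the UGT1A enzymes of mammals are made from 1 locus with alternative first exons and shared later exons, so that probes for different names in these groups can bind the same transcript.

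Most conjugation genes changed, in both directions and by less than 2-fold, a size that 0.745% of all genes reached or passed with a call. Of the 48 measured genes, 23 rose and 14 fell, or 77.1%, whereas 60.3% of all genes tested were called, 31.4% higher and 28.9% lower. The median of the 48 was 0.03 and that of all genes 0.008. The median absolute log2 ratio was 0.326 over the 48 and 0.111 over all genes. Of the 37 genes called, 18 were above 0 and 9 below 0 in 10 of 10 animals, and 35 had the same sign in both dye orientations. On the 14 arrays 21 members were called higher and 13 lower, where 43.2% of all genes were called, 24.9% higher and 18.3% lower, and 31 of these 37 were called in the same direction and none in the other. The 6 calls lost were those of GSTA3, GSTA4, GSTA5, SULT2B1, SULT4A1 and SULT5A1.

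**Figure D1:**
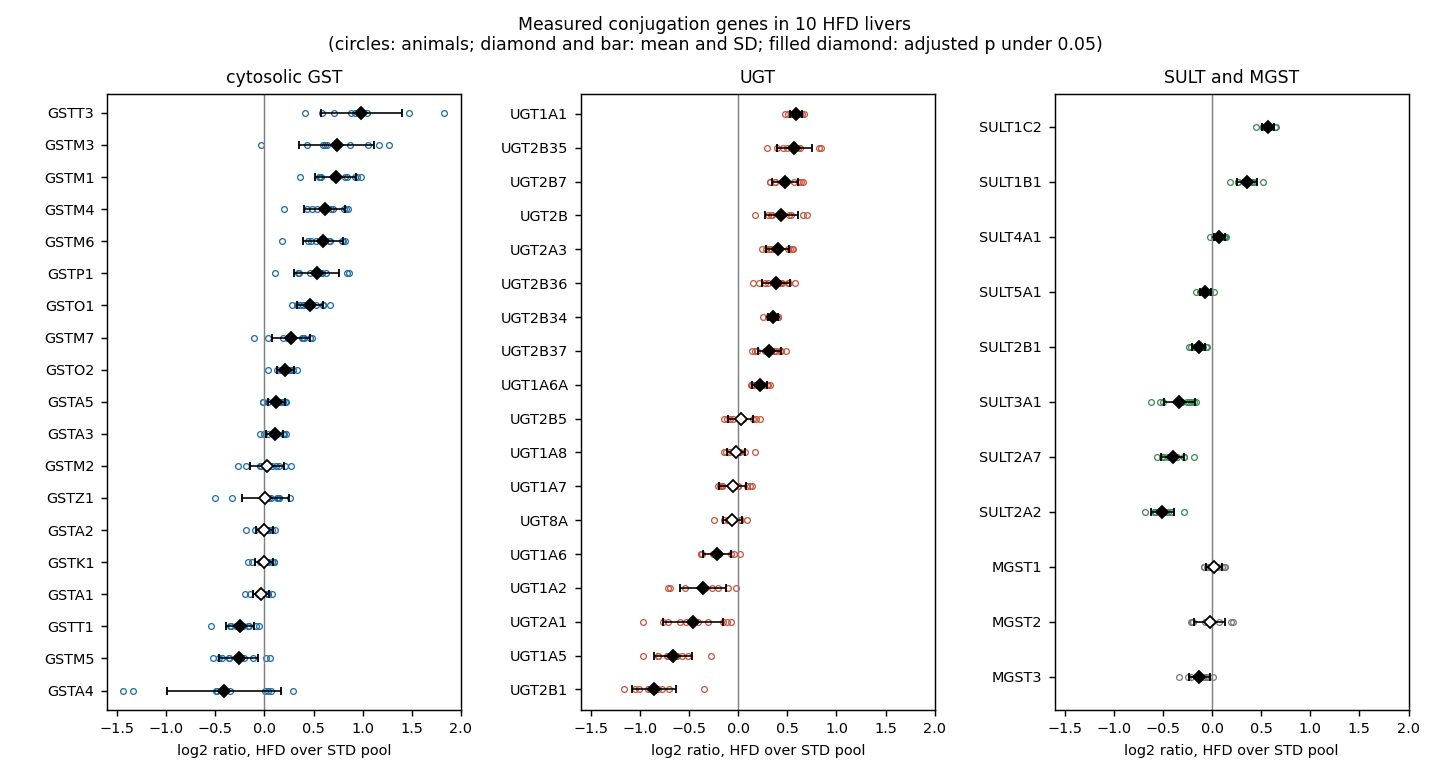
Log2 ratio of HFD over STD pool (horizontal axis) for the 48 measured conjugation genes, by family. Circles are the 10 animals, diamonds and bars the mean and SD, and filled diamonds mark an adjusted p under 0.05. GSTT3 reached the highest mean (0.98) and UGT2B1 the lowest (-0.86), and the animals of GSTA4 lay on both sides of 0.

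Higher calls outnumbered lower ones among the cytosolic GSTs and the UGTs, and lower calls among the SULTs. Cytosolic GSTs had 11 genes higher and 3 lower of 19 with a median of 0.12, and UGTs had 9 higher and 5 lower of 18 with a median of 0.12. The label cytosolic was given by name to every GST other than the MGSTs, so that it takes in GSTK1 of the kappa class. SULTs had 3 higher and 5 lower of 8 with a median of -0.10, and of the 3 MGSTs 1 fell. The median over the cytosolic GSTs lay between -0.04 and 0.26 in the 10 animals and was below 0 in animal 10 alone. The median over the UGTs was above 0 in all 10 animals, between 0.08 and 0.26, and that over the SULTs was below 0 in all 10, between -0.15 and -0.02. These medians depended on the probes and arrays used. With the mean of all probes of each gene the UGT median was -0.040, and without the filter on detection it was 0.025. The SULT median was -0.042 on the 14 arrays, and the GST median was 0.27 with HFD in Cy5 alone. These families hold few genes, several of them paralogs whose probes share bases, so the counts describe the families and were not tested against the background.

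Mu class GSTs, which conjugate epoxides and other electrophiles and are abundant in rodent liver, gave 5 higher and 1 lower gene of 7, with a class median of 0.60. GSTM1 had a log2 ratio of 0.36 in the lowest animal, 0.76 at the median and 0.98 in the highest (mean 0.72 ± 0.21, 1.65-fold, adjusted p = 3.74e-07). It was above 0 in all 10 animals, with animal 10 the lowest. GSTM3 ranged from -0.04 in animal 10 through a median of 0.68 to 1.27 in animal 9 (mean 0.73 ± 0.38, 1.66-fold, adjusted p = 4.59e-05). GSTM4 (0.61 ± 0.21), GSTM6 (0.60 ± 0.20) and GSTM7 (0.27 ± 0.19) rose as well. GSTM5 fell, from -0.52 in animal 10 through a median of -0.30 to 0.06 in animal 8 (mean -0.26 ± 0.20, adjusted p = 0.00112), and 2 animals were above 0. Its brightest probe was the dimmest among the members, with a median intensity of 150 in HFD RNA and 181 in the pool. The further GSTM5 probe (-0.10) has 0 reading frames without a stop codon as printed and 1 on the other strand. It shares 22 bases on the opposite strand with a GSTM4 probe (0.19). Both GSTM5 probes are of transcript hamV2-150806, and whether they report GSTM5 was not tested. Animal 10 was the lowest of the 10 in each of the 7 mu class genes. By its brightest probe GSTM2 was not called (0.03 ± 0.17, adjusted p = 0.619), with 6 animals above 0.

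The name GSTM2 covers 4 assembled transcripts on the array, and their probes went apart. This was noticed after the values were seen. The brightest probe and a second one belong to transcript hamV2-14319 and measured 0.03 ± 0.17 and 0.04 ± 0.20. The other 5 probes, of transcripts hamV2-14320, hamV2-79739 and hamV2-87586, were all higher in 10 of 10 animals, with means between 1.57 and 2.68. They are the only ones among the 169 conjugation probes that passed to be at least 2-fold higher, which 0.260% of all 103879 probes were. The probes of the first 2 transcripts can be laid side by side, since they align over their whole length without a gap, with 11 of 60 bases different. They are shown with the differing bases in capitals, because these letters separate a probe that was not called from one that rose 6.40-fold.
GSTM2, transcript hamV2-14319 (0.03): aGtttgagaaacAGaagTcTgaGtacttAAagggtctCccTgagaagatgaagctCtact
GSTM2, transcript hamV2-14320 (2.68): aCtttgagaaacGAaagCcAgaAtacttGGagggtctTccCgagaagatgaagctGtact

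The probe of hamV2-14320 had a log2 ratio of 2.13 in the lowest animal, 2.56 at the median and 3.13 in the highest (mean 2.68 ± 0.31, adjusted p = 1.21e-10 over all probes). Its median intensity over the arrays was 36590 in HFD RNA and 5566 in the pool. All 10 animals lay above those of the hamV2-14319 probe, which ranged from -0.27 to 0.27. It gave 2.65 with HFD in Cy5 and 2.71 with HFD in Cy3, and 2.68 and 2.66 on the 14 and the other 6 arrays. A further window of the same transcripts, 52 bases long with 7 different, gave 0.04 ± 0.20 for hamV2-14319 and 2.14 ± 0.29 for hamV2-14320. The 2 probes of hamV2-87586 measured 1.67 ± 0.40 and 1.57 ± 0.36. The first of these gave 1.94 on the 14 arrays and 1.03 on the other 6. This probe aligns on the same strand with a GSTM6 probe of transcript hamV2-5558 over 48 bases, with 8 different. Another probe of hamV2-5558 shares 54 bases on the opposite strand with a GSTM6 probe of hamV2-148654. Whether the probes of hamV2-87586 read the other strand as well was not tested. The mean of all 7 probes of the name was 1.52, past the threshold, so that the call for GSTM2 depends on which transcript stands for it.

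A similar contrast held between names. The single probe of the GSTM2 transcript hamV2-79739 (2.51 ± 0.30, 5.71-fold) overlaps a probe of GSTM7 (transcript hamV2-132053, 0.06 ± 0.22) over 51 bases with 5 different. The overlap is shown with the differing bases in capitals.
GSTM2, transcript hamV2-79739 (2.51): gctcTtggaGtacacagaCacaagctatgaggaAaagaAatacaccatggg
GSTM7, transcript hamV2-132053 (0.06): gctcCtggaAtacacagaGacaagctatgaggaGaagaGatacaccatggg

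Only 13 of the 49 names are gene symbols in RefSeq's annotation of hamster (assembly BCM_Maur_2.0). Which gene each GSTM2 transcript belongs to was not tested, and the probes carry no genome position in the files.

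**Figure D2:**
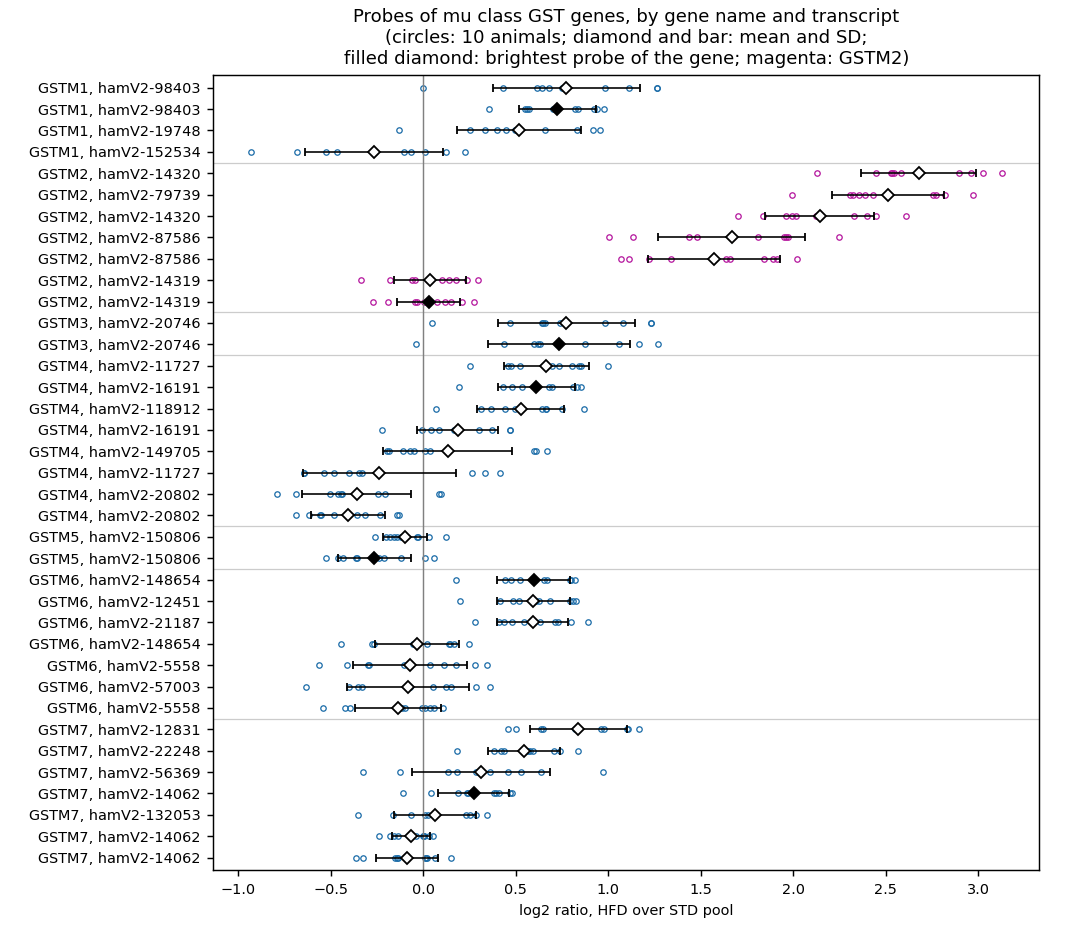
Log2 ratio of HFD over STD pool (horizontal axis) for each of the 37 mu class probes that passed, labelled by gene name and assembled transcript. Circles are the 10 animals, diamonds and bars the mean and SD, filled diamonds the brightest probe of a gene, and GSTM2 is in magenta. Its 5 probes of 3 transcripts lie between 1.57 and 2.68, and the 2 probes of hamV2-14319 lie near 0.

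Across the mu class, 21 of 37 probes that passed were called higher and 5 lower, whereas 55.1% of all probes were called, 26.7% higher and 28.4% lower. Several names hold probes that disagree. GSTM4 had 3 further probes higher and 2 lower, GSTM1 had 2 higher and 1 lower, and GSTM6 had 2 higher of 6 with none lower. A lower GSTM4 probe (-0.36) shares 43 bases on the opposite strand with an uncalled probe of that name (-0.24). A lower GSTM5 probe (-0.10) shares 22 such bases with a higher GSTM4 probe (0.19). The other lower probes of GSTM4 and GSTM5 are of the same transcripts as these lower ones. Which strand the lower GSTM1 probe reads was not tested. The brightest probes of GSTM1, GSTM4 and GSTM6 share bases on the same strand, and their values of 0.72, 0.61 and 0.60 are not independent. Further probes of GSTM1 (0.77) and GSTM3 (0.77) share 52 bases on the same strand, so that GSTM3 may not be independent of GSTM1 either. The 47 bases common to GSTM1 and GSTM4 are in capitals, as a case in which 2 rows of the count may report 1 transcript.
GSTM1, brightest probe (0.72): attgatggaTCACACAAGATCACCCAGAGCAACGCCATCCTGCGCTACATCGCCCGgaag
GSTM4, brightest probe (0.61): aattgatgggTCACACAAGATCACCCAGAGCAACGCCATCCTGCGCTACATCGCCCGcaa

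The remaining cytosolic classes were mixed. GSTT3, a theta class enzyme of rodents, had the highest mean of all members. Its log2 ratio was 0.42 in the lowest animal, 0.95 at the median and 1.83 in the highest (mean 0.98 ± 0.41, 1.98-fold, adjusted p = 7.16e-06), so that all 10 animals were above 0 with a wide spread. Its further probe, which shares 26 bases with the brightest on the opposite strand, gave 0.79 ± 0.27. GSTT1, the theta class enzyme that acts on small halogenated solvents, fell by 0.25 on the log2 scale. It ranged from -0.55 in animal 10 through a median of -0.23 to -0.06 in animal 3 (SD 0.15, adjusted p = 2.39e-04), below 0 in all 10, and 4 of its 5 further probes fell. GSTP1 (0.53 ± 0.23), the pi class enzyme that in rat liver is low in normal hepatocytes and high in preneoplastic foci, rose in 10 of 10 animals, and its further probe gave 0.51. The omega class genes GSTO1 (0.46 ± 0.13) and GSTO2 (0.21 ± 0.09), which can reduce dehydroascorbate, rose too. GSTO1 measured 0.83 on the 6 arrays and 0.31 on the 14, and 3 of its 3 further probes rose, whereas neither of the 2 further probes of GSTO2 was called.

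In the alpha class, which includes the main GSTs of hepatocytes, changes were small or differed between arrays. GSTA1 (-0.03 ± 0.08) and GSTA2 (0.00 ± 0.09) were not called, the second with 0.48 on arrays with HFD in Cy5 and -0.48 with HFD in Cy3, and GSTA3 (0.11 ± 0.09) and GSTA5 (0.12 ± 0.09) rose slightly. The brightest probes of GSTA3 and GSTA5 share 46 bases, and both further probes of each name were lower, between -0.35 and -0.52. On the 14 arrays GSTA3 was fitted at 0.009 and GSTA5 at 0.02, and neither was called. GSTA4, the class member that conjugates the lipid peroxidation product 4-hydroxynonenal, ranged from -1.44 in animal 9 through a median of -0.38 to 0.29 in animal 4. Its mean was -0.41 ± 0.58 (adjusted p = 0.0329) with 4 of 10 animals above 0. On the 6 arrays it was -1.12, and on the 14 arrays alone its fit gave -0.11 (adjusted p = 0.528). Leaving out any 1 of animals 1, 2, 6, 8, 9 and 10 also moved its adjusted p past the threshold, to between 0.0507 and 0.0754. The last bases of the brightest GSTA4 probe, atacatgtcaatc, are the reverse complement of gattgacatgtat in the brightest GSTA3 probe. This run is shorter than those sought for the opposite-strand pairs below, which hold no GSTA4 probe. Which strand the GSTA4 probes read, and whether they report GSTA4, was not tested. GSTK1 (-0.01 ± 0.09) of the kappa class and GSTZ1 (0.01 ± 0.24), the maleylacetoacetate isomerase of tyrosine breakdown, were not called. Of 5 further GSTZ1 probes 3 fell, with the lowest mean at -0.33. On the 14 arrays the brightest GSTZ1 probe was fitted at 0.13 and called higher (adjusted p = 0.0202).

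Of the microsomal enzymes, MGST3 fell slightly. It ranged from -0.34 in animal 1 through a median of -0.11 to 0.01 in animal 9 (mean -0.13 ± 0.10, adjusted p = 0.00405), and its further probe gave -0.15. With HFD in Cy5 it measured -0.26 and with HFD in Cy3 0.0006. MGST1 (0.02 ± 0.08), the abundant microsomal transferase and peroxidase of liver, and MGST2 (-0.03 ± 0.15) were not called.

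UGT2B genes, whose enzymes glucuronidate steroids, bile acids and many drugs, mostly rose, with 6 higher and 1 lower of 8 and a class median of 0.37. UGT2B35 had a log2 ratio of 0.29 in the lowest animal, 0.59 at the median and 0.84 in the highest (mean 0.57 ± 0.17, 1.49-fold, adjusted p = 7.48e-07). UGT2B7, named for the human enzyme that conjugates morphine, ranged from 0.32 through 0.45 to 0.66 (mean 0.48 ± 0.13, 1.39-fold, adjusted p = 5.10e-07), and all 5 of its further probes rose. Animal 5 was the lowest for both, and no animal was below 0. The gene listed only as UGT2B (0.44 ± 0.16), UGT2B36 (0.39 ± 0.14), UGT2B34 (0.35 ± 0.05) and UGT2B37 (0.32 ± 0.12) rose in 10 of 10 animals. UGT2B5 was not called (0.02 ± 0.13), although its brightest probe shares 31 bases with that of UGT2B37.

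UGT2B1 went the other way and was the member that fell most. It had a log2 ratio of -1.16 in animal 2, a median of -0.89 and -0.35 in animal 8 (mean -0.86 ± 0.22, or 0.552 of the pool, adjusted p = 1.48e-07). All 10 animals were below 0. Each of its 6 further probes, on 2 transcripts, fell as well, with means between -0.999 and -0.71. It measured -1.05 with HFD in Cy5 and -0.67 with HFD in Cy3, and -0.998 on the 14 arrays against -0.53 on the other 6.

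Of the UGT1 genes, 2 of 7 rose and 3 fell. UGT1A1, the bilirubin-conjugating enzyme, ranged from 0.47 in animal 7 through a median of 0.60 to 0.67 in animal 9 (mean 0.59 ± 0.06, 1.503-fold, adjusted p = 1.33e-09). All 10 animals were above 0, and the orientations gave 0.39 with HFD in Cy5 and 0.79 with HFD in Cy3. Its further probes disagreed, with 2 called higher and 4 lower, and the mean of all its probes was -0.03 and not called. UGT1A5 fell and ranged from -0.97 in animal 7 through a median of -0.68 to -0.28 in animal 5 (mean -0.67 ± 0.19, 0.63 of the pool, adjusted p = 4.22e-07). Both further probes of UGT1A5 fell too, by 0.51 and 0.49. UGT1A2 (-0.36 ± 0.23) and UGT1A6 (-0.21 ± 0.14), whose enzyme acts on small phenols, fell, and UGT1A6A (0.22 ± 0.07) rose. The single UGT1A6A probe shares 54 bases on the opposite strand with a UGT1A1 probe. Whether it reports UGT1A6A apart from other UGT1 names was not tested. UGT1A2 measured -0.64 with HFD in Cy5 and -0.08 with HFD in Cy3, and UGT1A6A 0.03 and 0.41. UGT1A7 (-0.06 ± 0.14) and UGT1A8 (-0.02 ± 0.09) were not called, although both further probes of UGT1A8 fell. UGT8A (-0.06 ± 0.10), named like the ceramide galactosyltransferase of myelin, was not called either.

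Both UGT2A genes changed. UGT2A3 (0.40 ± 0.12) rose in 10 of 10 animals and so did all 4 of its further probes, with 0.77 on the 6 arrays and 0.25 on the 14. UGT2A1, known from olfactory tissue of rat and human, was below 0 in 10 of 10 animals and ranged from -0.97 in animal 9 through a median of -0.47 to -0.07 in animal 3 (mean -0.46 ± 0.30, adjusted p = 3.12e-04). On the 6 arrays it measured -1.13. On the 14 arrays its mean was -0.18, with a fitted value of -0.12 (adjusted p = 0.037). Each of the 2 UGT2A1 probes has 0 reading frames without a stop codon as printed and 2 on the other strand. Both share 46 bases on the opposite strand with a probe of UGT2B34. Whether they report UGT2A1 was not tested.

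**Figure D3:**
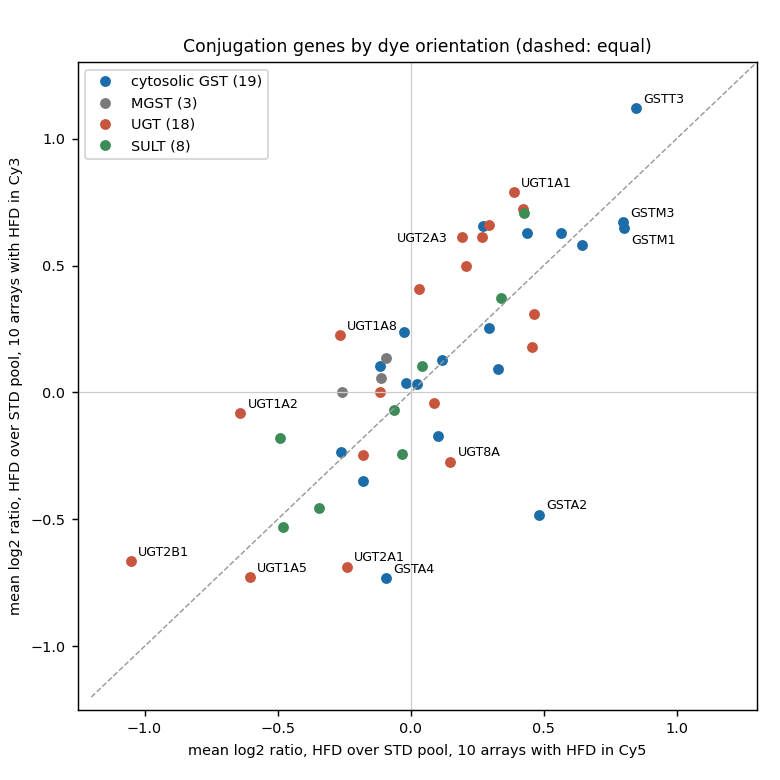
Mean log2 ratio of HFD over STD pool on the 10 arrays with HFD in Cy5 (horizontal axis) and on the 10 with HFD in Cy3 (vertical axis) for the 48 measured genes, coloured by family. The dashed line marks equal values. GSTA2 measured 0.48 with HFD in Cy5 and -0.48 with HFD in Cy3, and GSTT3 and UGT2B1 kept their sign in both.

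Some probes of different transcripts read opposite strands of the same bases. Among the 180 probes, 14 pairs share between 20 and 54 bases as reverse complements, and they involve 23 probes of 13 gene names. A probe enters such a pair only where another of the 180 covers the same bases exactly. The pairs therefore do not give the number of probes that read the other strand. For example, the UGT1A8 probe of transcript hamV2-5367 is in none of them. It has 0 reading frames without a stop codon as printed and 3 on the other strand. Which strand the probes outside these pairs read was not tested, though some of them belong to the transcript of a paired probe. In 9 of the 14 pairs 1 probe was called higher and the other lower, in 1 pair both were called higher and in 1 both lower. Of these, 3 are shown with the shared bases in capitals, each probe 5′ to 3′ as synthesised on the array, because they hold a member that rose and a probe that fell over the same stretch.
UGT1A6A, brightest probe (0.22): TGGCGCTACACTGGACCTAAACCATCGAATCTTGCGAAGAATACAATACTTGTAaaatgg
UGT1A1, transcript hamV2-149407 (-0.45): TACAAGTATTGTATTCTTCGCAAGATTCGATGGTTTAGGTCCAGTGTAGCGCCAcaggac
UGT2B34, transcript hamV2-18104 (0.24): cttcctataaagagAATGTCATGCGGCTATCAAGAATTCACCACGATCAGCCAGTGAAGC
UGT2A1, brightest probe (-0.46): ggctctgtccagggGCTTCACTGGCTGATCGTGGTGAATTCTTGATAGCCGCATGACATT
UGT2B36, brightest probe (0.39): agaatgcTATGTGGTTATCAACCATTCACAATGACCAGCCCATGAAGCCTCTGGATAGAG
UGT2B36, transcript hamV2-152094 (-0.29): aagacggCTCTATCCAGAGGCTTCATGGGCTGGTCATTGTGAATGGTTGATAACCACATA

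The 6 arrays that stood apart gave other values for these probes than the 14 did. For description, the probe of each pair that was lower on the 6 arrays was taken, a choice that itself favours low values there. In 13 of the 14 pairs this probe lay between -1.27 and -0.26 on those 6 arrays and between -0.24 and 0.22 on the other 14. The UGT1A1 probe shown measured -1.02 on the 6 and -0.20 on the 14, and its partner UGT1A6A 0.42 and 0.13. The UGT2B36 probe of hamV2-152094 measured -1.14 on the 6 and 0.07 on the 14, against 0.30 and 0.42 for its partner. GSTT3 was the exception, with a pair sharing 26 bases at 0.79 ± 0.27 and 0.98 ± 0.41, both higher on either set of arrays. Both UGT2A1 probes, which fell, share 46 bases on the opposite strand with a probe of UGT2B34 that rose (0.24 ± 0.14). The brightest UGT2A1 probe also shares 20 such bases with the brightest probe of UGT2B1, which fell (-0.86) and measured -0.53 on the 6 arrays and -0.998 on the 14. How the labelling kit handles strand is not stated in the sources used here, and what produced the signal of these probes was not tested.

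**Figure D4:**
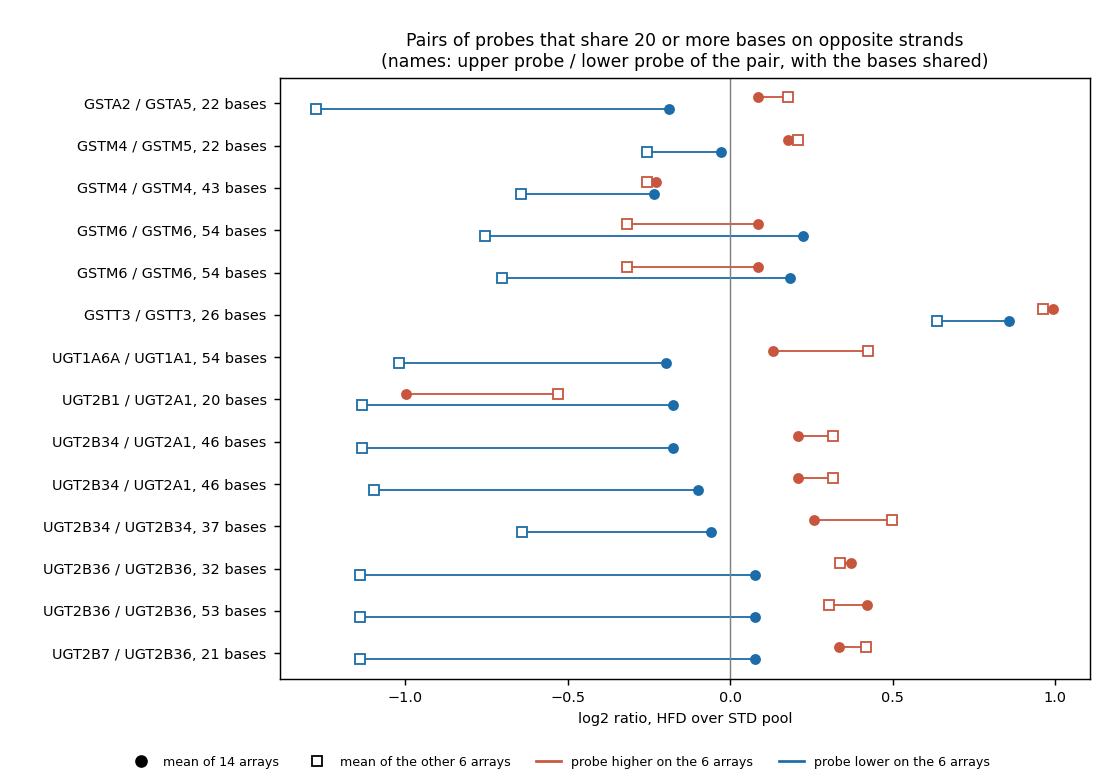
Mean log2 ratio of HFD over STD pool (horizontal axis) for the 2 probes of each of the 14 pairs that share 20 or more bases on opposite strands. Filled circles are means over 14 arrays and open squares means over the 6 arrays that stood apart, red for the probe that is higher on the 6 arrays and blue for the lower. Blue squares lie at or below -0.26 in every pair but that of GSTT3.

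Probes also disagreed within names. Of 31 called members with further probes, 7 had at least 1 further probe called the other way, and of 8 uncalled members 4 had a called further probe. The 4 lower probes of UGT1A1 all belong to transcript hamV2-149407, and UGT2B34 had 4 higher and 5 lower, the 5 lower all on hamV2-125411. A probe of hamV2-149407 shares 54 bases on the opposite strand with the UGT1A6A probe. A probe of hamV2-125411 shares 37 such bases with a higher UGT2B34 probe, and a lower GSTA5 probe shares 22 with a GSTA2 probe. The other lower probes of UGT1A1, UGT2B34 and GSTA5 come from the same assembled transcripts as these paired probes. If probes of 1 transcript were drawn from 1 strand, they read the same strand as the paired probe. The strand of the remaining disagreeing probes was not tested. With the mean of all probes in place of the brightest, UGT2B34 was at -0.07 and not called, GSTA3 at -0.27 and GSTA5 at -0.25, against 0.35, 0.11 and 0.12 by the brightest probe. Counted by assembled transcript in place of gene name, 43 rose and 26 fell of 86 measured, whereas 58.1% of all named transcripts were called, 29.0% higher and 29.0% lower.

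All 8 SULT genes were called. Both SULT1 genes rose and the 3 SULT2 genes fell. SULT1C2, of the subfamily that sulfates phenols and N-hydroxy arylamines, ranged from 0.45 in animal 10 through a median of 0.58 to 0.65 in animal 8 (mean 0.56 ± 0.06, 1.48-fold, adjusted p = 1.75e-09). SULT1B1, which acts on phenols and thyroid hormones, ranged from 0.18 in animal 10 through 0.37 to 0.52 in animal 3 (mean 0.355 ± 0.10, 1.28-fold, adjusted p = 1.01e-06). All 10 animals were above 0 for both genes, and all 4 of their further probes rose. SULT4A1, named for an orphan member of brain, differed by a small amount (-0.02 in the lowest animal, median 0.07, highest 0.14, mean 0.07 ± 0.05, adjusted p = 0.0138), and on the 14 arrays its fit gave -0.0008.

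The hydroxysteroid sulfotransferases fell. SULT2A2, of the subfamily that sulfates steroids and bile acids, ranged from -0.68 in animal 6 through a median of -0.53 to -0.28 in animal 5 (mean -0.51 ± 0.12, 0.704 of the pool, adjusted p = 1.32e-07). SULT2A7 ranged from -0.56 through -0.42 to -0.18 with the same animals at its ends (mean -0.40 ± 0.12, 0.759 of the pool, adjusted p = 1.05e-06). Both stayed below 0 in 10 of 10 animals and on the 14 arrays, at -0.50 and -0.42. SULT2B1 (-0.14 ± 0.06), known in human as a cholesterol sulfotransferase, fell, but measured -0.03 with HFD in Cy5 and was not called on the 14 arrays (-0.04, adjusted p = 0.222). SULT3A1, an amine sulfotransferase in mouse, ranged from -0.62 in animal 10 through a median of -0.28 to -0.17 in animal 8 (mean -0.33 ± 0.16, adjusted p = 4.02e-05). SULT5A1 fell by 0.07 on the log2 scale, with 1 animal above 0, and without animal 10 its adjusted p was 0.0502. On the 14 arrays it was fitted at -0.04 and not called.

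The enzymes that make and use the conjugation donors moved in both directions. Counts in this and the other lists stand against 31.4% of all genes higher and 28.9% lower, and they describe the genes named and nothing particular to a list. In glutathione supply and recycling, 5 of 13 measured genes rose and 4 fell, with a median of 0.002. GSS, the glutathione synthetase (0.54 ± 0.55), and CTH of cysteine synthesis (0.43 ± 0.32) rose, while GCLC, the catalytic subunit of the rate-limiting ligase (-0.32 ± 0.12), and OPLAH (-0.52 ± 0.16), which recycles oxoproline, fell. For UDP-glucuronic acid, 2 of 6 rose and 1 fell: UGP2 (0.98 ± 0.20), which makes UDP-glucose, and the glucuronide-cleaving GUSB (0.44 ± 0.13) rose, and UGDH (-0.27 ± 0.20), which oxidises UDP-glucose to the donor, fell. In sulfate donor supply and sulfate removal, 7 of 12 rose and 2 fell, with a median of 0.21. The lysosomal sulfatase ARSA (0.85 ± 0.17) and the sulfite oxidase SUOX (0.70 ± 0.10) rose, and BPNT1 (-0.11 ± 0.07) and the PAPS synthase PAPSS1 (-0.16 ± 0.05) fell. The second PAPS synthase, PAPSS2, rose (0.32 ± 0.08) and is named after its value was seen.

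Other conjugating enzymes gave 4 higher and 6 lower genes of 11, with a median of -0.29 that was 0.01 on the 14 arrays. The methyltransferase INMT (1.56 ± 0.31) and the arylamine acetyltransferase NAT2 (0.40 ± 0.12) rose, and ACSM5 (-0.69 ± 0.31) and GAMT (-0.50 ± 0.30) fell. ACSM5 was fitted at -0.39 and GAMT at -0.32 on the 14 arrays. Exporters and carriers of conjugates gave 3 higher and 2 lower of 11, with ABCC5 (0.47 ± 0.07) and ABCB1B (0.20 ± 0.09) up and ABCG2 (-0.21 ± 0.11) and ABCC3 (-0.16 ± 0.14) down. ABCC3 was fitted at -0.06 on the 14 arrays. Among the regulators 3 of 18 rose and 7 fell. RXRA (0.47 ± 0.19), the partner of many nuclear receptors, and MAFK (0.25 ± 0.10) rose, and HNF4A (-0.39 ± 0.19) and KEAP1 (-0.65 ± 0.35), the repressor of NRF2, fell. RXRA was fitted at 0.26 and KEAP1 at -0.20 on the 14 arrays. Antioxidant enzymes that share glutathione or its regulation gave 7 higher and 7 lower of 18, with NQO1 (0.65 ± 0.11) and NQO2 (0.41 ± 0.08) up and ESD (-0.45 ± 0.46) and EPHX1 (-0.32 ± 0.18) down. ESD was fitted at -0.01 on the 14 arrays.

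**Figure D5:**
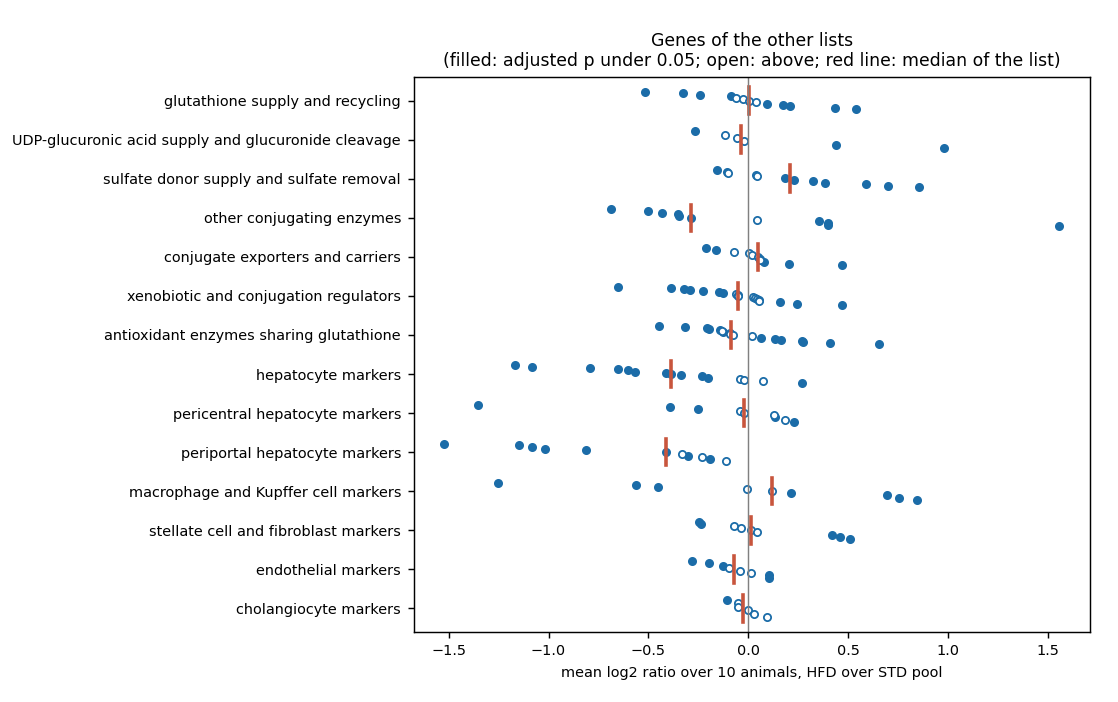
Mean log2 ratio over 10 animals of HFD over STD pool (horizontal axis) for the measured genes of 14 lists, 7 of conjugation and 7 of liver cell types. Filled points passed the threshold, open points did not, and the red line is the median of the list. Medians of hepatocyte and periportal markers lie at -0.39 and -0.41, and that of sulfate donor supply at 0.21.

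Markers of liver cell types moved with the diet beside the conjugation genes. The tissue label was checked against 16 hepatocyte markers, of which 15 passed the detection filter. Of these 15, 1 rose and 11 fell, with a median of -0.39, and the median per animal lay between -0.61 and -0.17. Periportal markers gave 0 higher and 8 lower of 11 (median -0.41, per animal between -1.32 and -0.20), and pericentral markers 2 higher and 3 lower of 9 (median -0.02). Macrophage and Kupffer cell markers gave 4 higher and 3 lower of 9 (median 0.12, and 0.22 on the 14 arrays), stellate cell and fibroblast markers 3 and 2 of 9, endothelial markers 2 and 3 of 8, and cholangiocyte markers 0 and 1 of 6. In whole liver RNA fewer cells of a type and less RNA per cell cannot be told apart, and the part of these shifts in the conjugation genes was not tested.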

How the data were processed

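The deposited intensities of each spot (mean signal and median background around it, per colour) come from Agilent Feature Extraction 10.7.3.1, per the file headers. The same tables hold processed intensities, already background-subtracted and dye-normalised, per the file headers. A deposited table gives the authors' log2 ratio of each probe in each animal, and the submitters' processing notes name limma. Compared with the scanner values its columns have HFD on top, over the STD pool, and correlate with the ratios computed here at r between 0.92 and 0.973. Their medians for animals 1 to 10 were -0.000128, -0.0145, -0.000492, -0.00171, 0.0185, -0.0122, -0.00991, 0.0075, -0.0012 and -0.0103, and their exact scale and centring stay unknown. Which dye each RNA carried was taken from the deposited name of the array, on which the direction of all ratios rests.

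Intensities were corrected with normexp (offset 50) and normalised by within-array loess (limma 3.58.1, R 4.3.3), with control and outlier spots at weight 0 and then left out. No spot was saturated. Every ratio was expressed as HFD over STD pool, and an animal's 2 dye-swapped arrays were averaged. Probes were kept that had a value on all arrays and were well above background, for either RNA, on 10 or more of the 20. The brightest kept probe stood for its gene, and all 13827 named genes were fitted with lmFit and eBayes against 0. Further probes were tested in a fit over all 103879 kept probes. The fit on 14 arrays took each array singly, with the dye as a term and a random block for the animal. Shared bases were sought as exact runs of at least 20. Stop codons were sought in every reading frame of each conjugation probe, on both strands. The number of arrays limits the precision. The method was tested on simulated data.

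The members and gene lists were chosen with earlier results of these data known. Every measured member is named. Values per animal are given for the called members with the 3 highest and 3 lowest means of each family, and from each other list of conjugation at most the 2 highest and 2 lowest called genes are named.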

Additional observations from a re-analysis of the deposited data

How the results depend on the processing

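Of the 37 called members, 25 kept direction and call under all 26 alternatives. On the 14 arrays 5 of the 37 lost the call with the same direction and 1 turned sign. Leaving out 1 animal at a time gave 23 higher and between 12 and 15 lower members, with a median between 0.007 and 0.05. Either dye orientation alone, the 14 arrays and the mean of all probes changed the call or sign of more members than the other settings did. With HFD in Cy5 alone the median of the cytosolic GSTs was 0.27 and that of the SULTs -0.049, with 2 MGSTs and 3 SULTs lower, and GSTA1 (0.10), GSTA3 (-0.027) and UGT8A (0.15) turned sign. With HFD in Cy3 alone the median of all members was 0.11 and that of the UGTs 0.20, with 5 cytosolic GSTs lower, 1 MGST higher and 0 lower, and GSTA2 (-0.48), GSTK1 (0.10), MGST3 (0.00061) and UGT1A8 (0.22) turned sign. On the 14 arrays 2529 of all genes, 2 MGSTs and 3 SULTs were lower, the median of the SULTs was -0.042, and SULT4A1 was at -0.00076. When a gene's probes were averaged the median of the UGTs was -0.040, and GSTA3 (-0.27), GSTA5 (-0.25), UGT1A1 (-0.026) and UGT2B34 (-0.069) turned sign, which follows from their further probes. Without a filter the median of the UGTs was 0.025, and with median centring 3 SULTs were lower. In the third scan session alone, chosen after seeing the data with the other session settings, 2735 of all genes rose and 2360 fell, with 0 MGSTs and 3 SULTs lower. By assembled transcript, also chosen afterwards, 43 rose and 26 fell, 25 and 8 among the cytosolic GSTs and 15 and 12 among the UGTs. Except where stated, the cause was not tested. The planned fit within a scan session of animals with both arrays was not run, since no session holds both arrays of an animal. No paired analysis was possible because the HFD animals have a single common pool and no second group shares their numbers.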
